A study of Mus musculus with 12 samples.

Results

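The 7 genes described here encode transcription factors that carry the signal of the circadian clock to other genes: the PAR bZIP activators Dbp, Tef and Hlf, the bZIP repressor Nfil3, the DEC repressors Bhlhe40 and Bhlhe41, and the repressor Ciart. They are 7 of the 55487 genes in the count table and were found by matching gene identifiers to these symbols. The family was chosen by function and also selected on measured values, the low levels of Bhlhe40 and Dbp in Mettl5 knockout liver in these same libraries, so the difference between genotypes in liver is given as a description, without a test.

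RNA was sequenced from liver and brain of 6 mice, with 3 libraries in each of 4 groups. Mice A, C and F were knockouts (KO) for Mettl5, which encodes an N6-methyladenosine methyltransferase of 18S rRNA, and mice B, D and E were labelled wild type (WT), although among mice used for RNA-seq the study's text names both heterozygous and wild-type animals. The KO is a whole-body loss of exon 2: a conditional allele, made in embryonic stem cells of a C57bl/6 x 129S6 hybrid and backcrossed to B6, was crossed with a CMV-cre line. The labels name no treatment. The study used both sexes over a range of ages, and the labels give no age, sex or hour of collection, so an hour of collection that differed between mice and the genotype cannot be told apart for genes of the clock.

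Library totals ran from 14403309 to 21623180 counts. Mettl5 read 9.93 to 18.7 CPM (normalised read counts, scaled to library size with TMM) in WT liver against 4.61 to 5.11 in KO liver, and 4.05 to 7.22 in WT brain against 2.60 to 3.13 in KO brain, with no overlap in either tissue; the table counts all exons of the gene together. The summed CPM of 5 liver markers was 67464 to 90190 in the liver libraries and at most 25.4 in brain, whereas that of 5 brain markers was 2436 to 3018 in brain and at most 23.4 in liver. Mice E and F, 1 of each genotype, had few counts from Y-linked genes in both tissues (116 to 336, against 2183 to 3445 in the other 8 libraries). The share of counts from the mitochondrial rRNA genes was 10.7 to 16.9% in WT liver and 7.36 to 8.66% in KO liver, and 7.63 to 17.7% in WT brain and 21.4 to 31.6% in KO brain.

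In mammals the activators CLOCK and BMAL1 bind E-boxes and drive the genes of their own repressors, the PER and CRY proteins, which closes a daily feedback loop. The same activators drive output regulators. DBP, TEF and HLF activate genes through a sequence called the D-box, NFIL3 represses from that same sequence, BHLHE40 and BHLHE41 (DEC1 and DEC2) compete at E-boxes, and CIART (also called CHRONO) binds BMAL1 and represses it. In liver and kidney the PAR bZIP proteins are known for daily expression of genes of detoxification and in brain for pyridoxal kinase and vitamin B6 metabolism.

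Promoters, taken as the 250 bases before to the 50 after each RefSeq transcript start (GRCm38.p6, the mm10 build of the files), were given for 6 of the 7 genes: all but Bhlhe40. The E-box searched was CACGTG, which reads the same on both strands. It stood in 4 of the 7 promoters of these genes, those of Tef (both starts), Bhlhe41 and Ciart, compared with 7.15% of 32851 promoters of all genes. These letters were not in the windows of Dbp, Hlf and Nfil3. The D-box (TTATGTAA or TTACGTAA, both strands) was in none of the 7 promoters and in 1.06% of all promoters. With no D-box in these promoters, an overlap with an E-box could not occur. Matches are descriptions of sequence, and binding was not measured. The stretches around the E-boxes that lay outside annotated exons are given here, 5′ to 3′ on the gene's strand with the E-boxes in capitals, because they hold the E-boxes counted above: Tef at its second start (chr15:81811246-81811311, plus strand), Bhlhe41 (chr6:145865559-145865603, minus strand) and Ciart (chr3:95882252-95882374, minus strand).
Tef: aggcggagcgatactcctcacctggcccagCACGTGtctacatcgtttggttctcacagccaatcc
Bhlhe41: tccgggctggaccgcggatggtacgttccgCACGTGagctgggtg
Ciart: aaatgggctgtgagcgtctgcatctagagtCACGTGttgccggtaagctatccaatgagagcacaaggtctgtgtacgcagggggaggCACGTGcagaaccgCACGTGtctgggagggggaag
The Ciart stretch held 3 E-boxes, with first bases at -116, -58 and -44 from the start. The E-box of Bhlhe41 began at -153 and those of Tef at -127 and -138, of which the first lies in an exon of the gene annotation and is not printed.

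**Figure D1:**
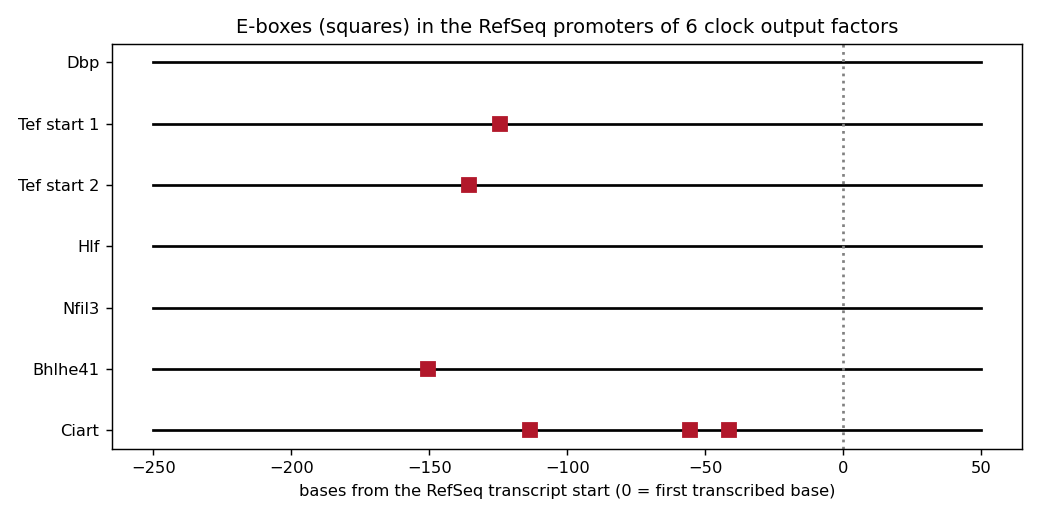
Positions of E-boxes in the 7 RefSeq promoters of 6 clock output factors, in bases from the transcript start (dotted line at 0). Each horizontal line is 1 promoter and each square 1 E-box: Ciart has 3, Bhlhe41 1 and each of the Tef starts 1, whereas Dbp, Hlf and Nfil3 have none.

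The PAR bZIP activators were higher in brain than in liver in every library, and in liver their KO levels were below those of at least 2 of the 3 WT mice. Dbp (ENSMUSG00000059824.12, chromosome 7, 45705088 to 45710203, plus strand) read 1.87, 15.2 and 14.2 CPM in WT liver of mice B, D and E. It read 2.14, 2.98 and 1.24 CPM in KO liver of mice A, C and F. The livers of mice D and E stood far above the other 4, and that of WT mouse B lay among the KO libraries, so the genotypes overlapped. In brain Dbp read 24.8, 46.5 and 37.8 CPM in WT and 25.5, 34.0 and 25.7 CPM in KO, again with overlap. The difference in liver, a log2 fold change of -2.34 (SE 0.81), corresponds to a 5.06-fold lower level in KO. It came to -2.84 without mouse B and -1.95 without mouse D. In these bulk samples fewer cells that express a gene and less RNA per cell cannot be told apart.

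Tef (ENSMUSG00000022389.15, chromosome 15, 81802421 to 81826863, plus strand) had a similar arrangement of mice at a smaller amplitude. Its level was 36.6, 69.6 and 71.6 CPM in WT liver of mice B, D and E and 35.3, 46.2 and 42.6 CPM in KO liver of mice A, C and F. Mouse B was again inside the KO range and mice D and E above it. The log2 fold change in liver was -0.56 (SE 0.26). Brain levels were 117, 152 and 137 CPM in WT and 105, 133 and 113 CPM in KO, so that the genotypes overlapped there.

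Hlf (ENSMUSG00000003949.16, chromosome 11, 90336536 to 90390895, minus strand) was arranged differently. WT liver read 37.2, 31.1 and 38.0 CPM and KO liver 24.5, 28.2 and 26.7 CPM, and all 3 WT livers, mouse B included, lay above all 3 KO livers. The log2 fold change was -0.46 (SE 0.13). In brain the values were 58.7, 68.5 and 79.4 CPM in WT and 48.1, 63.1 and 61.0 CPM in KO, where the ranges overlapped.

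**Figure D2:**
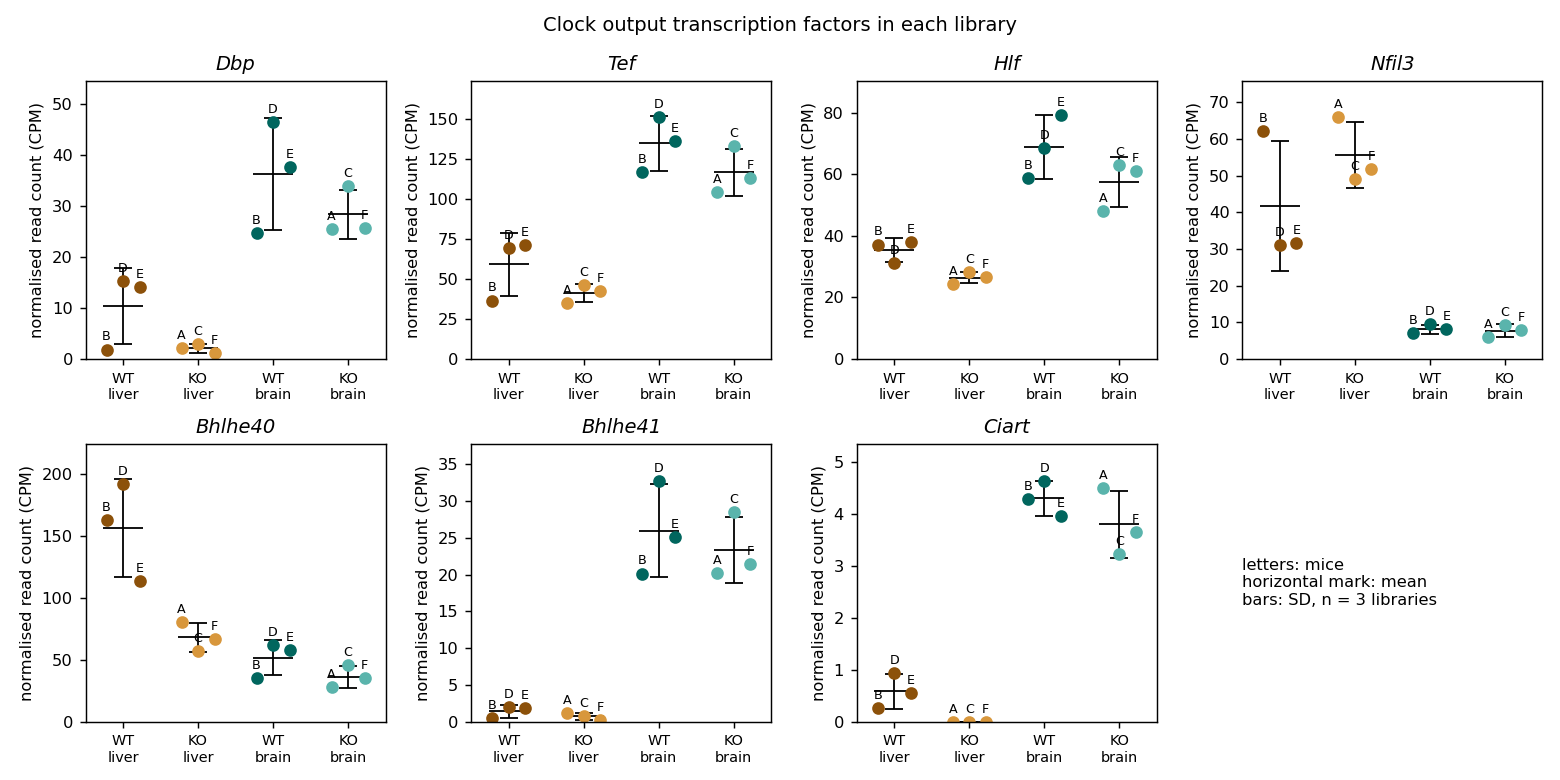
Normalised read counts (CPM, linear axes from 0, each panel with its own scale) of the 7 clock output factors in the 12 libraries. Points are libraries with the letter of the mouse, horizontal marks the group mean and bars the SD (n = 3); for Dbp, Tef and Bhlhe41 WT mouse B lies with the KO libraries in liver, whereas for Hlf, Bhlhe40 and Ciart all 3 WT livers lie above all 3 KO livers.

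Nfil3 (ENSMUSG00000056749.7, chromosome 13, 52967209 to 52981073, minus strand), whose product opposes the PAR bZIP proteins at the D-box, was the one fitted gene of the family with a positive difference in liver. It read 62.1, 31.2 and 31.6 CPM in WT liver of mice B, D and E and 65.9, 49.0 and 51.9 CPM in KO liver of mice A, C and F. Mice D and E were the 2 lowest livers and mouse B was second to KO mouse A. The log2 fold change was 0.38 (SE 0.27), and it was 0.78 without WT mouse B, 0.22 without WT mouse D or E and 0.25 without KO mouse A. Brain levels were much lower, at 7.01, 9.44 and 8.06 CPM in WT and 5.97, 9.32 and 7.98 CPM in KO.

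The balance of D-box activators to the repressor was computed on a scale per exon length (CPM per kb). The length is that of all annotated exons of a gene and not of the transcript expressed (Nfil3 2026, Dbp 2993, Hlf 6681 and Tef 7867 bases). The sum of Dbp, Tef and Hlf divided by Nfil3 was 0.354, 1.21 and 1.25 in WT liver of mice B, D and E. It was 0.273, 0.459 and 0.383 in KO liver of mice A, C and F. On this scale the activators exceeded Nfil3 in the livers of mice D and E only, and the liver of mouse B was inside the KO range. Which livers lie above equal levels depends on the lengths used. In brain the ratio was 9.24, 9.67 and 10.5 in WT and 9.84, 8.20 and 8.14 in KO, with overlapping genotypes and an activator excess in all 6 libraries. Dbp made up 5.75, 27.4 and 24.3% of the activator sum in WT liver and 8.05, 8.97 and 4.24% in KO liver. Among the 6 livers the share of Hlf ran from 25.0 to 51.3% and that of Tef from 42.9 to 55.1%. The brain share of Dbp was 30.2% ± 4.31 in the WT mice and 28.7% ± 1.77 in the KO mice (SD, n = 3).

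**Figure D3:**
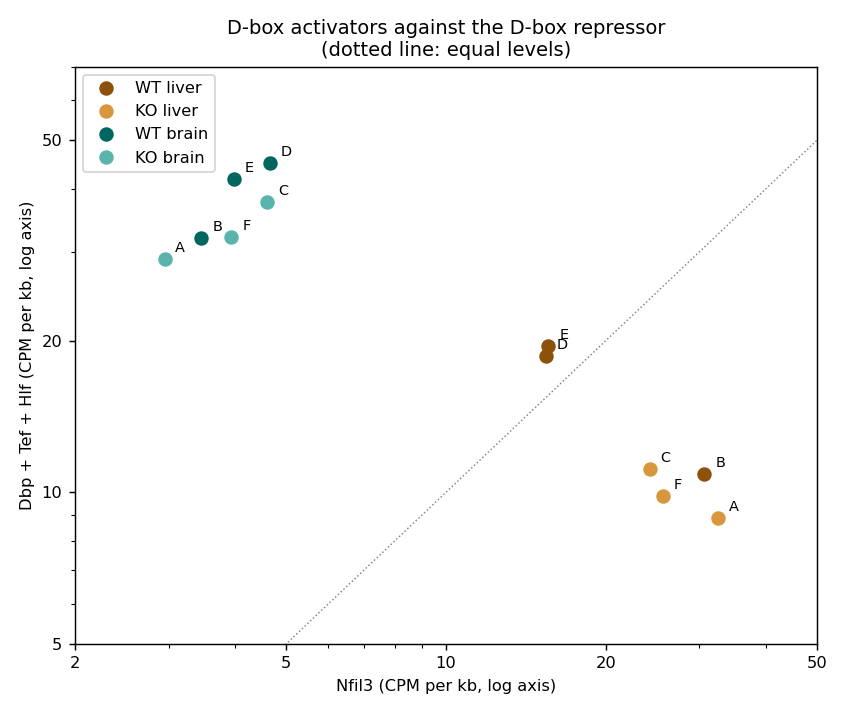
Summed level of Dbp, Tef and Hlf against the level of Nfil3, both in CPM per kb on log axes, with 1 point per library lettered by mouse and a dotted line where the levels are equal. Brain libraries lie above the line at low Nfil3, the livers of WT mice D and E just above it, and the livers of WT mouse B and the 3 KO mice below it at high Nfil3.

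The DEC repressors differed from each other in tissue and in genotype pattern. Bhlhe40 (ENSMUSG00000030103.11, chromosome 6, 108660629 to 108666925, plus strand) read 162, 192 and 114 CPM in WT liver of mice B, D and E and 80.7, 57.0 and 66.3 CPM in KO liver of mice A, C and F. All 3 WT livers were above all 3 KO livers, with mouse E nearest to them. The log2 fold change was -1.23 (SE 0.21), a 2.35-fold lower level, and it ran from -1.41 to -1.05 when each library was left out in turn. In brain Bhlhe40 read 35.4, 61.8 and 57.7 CPM in WT and 27.9, 45.7 and 35.3 CPM in KO, and the genotypes overlapped because WT mouse B lay within the KO range.

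Bhlhe41 (ENSMUSG00000030256.11, chromosome 6, 145858243 to 145865558, minus strand) was at low levels in liver, with 0.451, 2.03 and 1.81 CPM in WT and 1.22, 0.780 and 0.262 CPM in KO. The liver log2 fold change of -0.96 had an SE of 0.68, and mouse B lay within the KO range. It was -1.48 without KO mouse A, -0.55 without KO mouse F and -0.62 without WT mouse D. Brain held 20.2, 32.8 and 25.1 CPM in WT and 20.2, 28.5 and 21.4 CPM in KO. Per kb, the level of Bhlhe40 exceeded that of Bhlhe41 by 89.9 to 515 times in the 6 livers and by 1.97 to 3.29 times in the 6 brains.

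Ciart (ENSMUSG00000038550.10, chromosome 3, 95878503 to 95882251, minus strand) read 0.258, 0.938 and 0.556 CPM in WT liver and had no count in any KO liver. The WT value rests on 24 counts in all, too few for the filter on low counts, so no liver fold change was fitted. Against a floor of 3 counts over the KO group, which covers counting error only, KO liver was at least 7.96-fold lower. In brain Ciart read 4.30, 4.64 and 3.97 CPM in WT and 4.51, 3.24 and 3.65 CPM in KO, where the genotypes overlapped.

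Ordered by level per kb of annotated exon, the family had a different leading gene in each liver genotype. This order depends on the lengths used: by mean CPM, Bhlhe40 also led in KO liver (68.0, against 55.6 for Nfil3). In WT liver Bhlhe40 (33.2 ± 8.37 CPM per kb, SD, n = 3) and Nfil3 (20.6 ± 8.76) led, and their libraries overlapped. In KO liver Nfil3 (27.4 ± 4.47) stood above Bhlhe40 (14.5 ± 2.53) without overlap. Tef, Hlf and Dbp followed in that order in both, overlapping in WT and separate in KO, and Ciart and Bhlhe41 were lowest. In brain Tef led (17.2 ± 2.18 in WT and 14.9 ± 1.86 in KO). Its libraries overlapped those of Dbp, the next gene, in WT and not in KO. Dbp, Hlf and Bhlhe40 overlapped with their neighbours in the order, Nfil3 and Bhlhe41 lay apart below them but not from each other, and Ciart was apart at the end.

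Over the whole liver comparison, 5 of the 6 fitted genes of the family had a negative log2 fold change in KO, compared with 50.4% of the 14075 genes tested. Their median was -0.76, or -0.96 over all 7 with Ciart at its bound, against -0.0024 for all genes. The libraries of the genotypes were apart, with KO lower, for 2 of the 6 fitted genes (Hlf and Bhlhe40) and for Ciart, whereas 5.88% of all genes were apart in that direction and 7.22% in the other. The edgeR quasi-likelihood test with Benjamini-Hochberg adjustment called 0 of 14075 genes (0%) at an adjusted p under 0.1, with 1032 genes at an unadjusted p under 0.05 and 187 called by DESeq2. These shares are printed as background only, since the liver contrast took part in choosing the genes.

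The position of WT mouse B in liver recurred in the family. For Dbp, Tef, Nfil3 and Bhlhe41, 4 of the 6 fitted genes, mice D and E lay outside the KO range on the same side and mouse B did not. Over all genes tested in liver, mouse B was in this way the only WT library not apart for 7.23%, mouse D for 9.68% and mouse E for 13.5%. The core clock showed the same arrangement for Npas2, Nr1d1, Nr1d2 and Per3. Per3, for example, read 1.87 CPM in mouse B, 8.45 and 19.8 CPM in mice D and E, and 2.44 to 4.26 CPM in KO. By contrast, Per2, a repressor of the core loop, read 16.0 to 22.7 CPM in WT and 5.83 to 10.9 CPM in KO, with mouse B apart from the KO livers. The mitochondrial rRNA share of mouse B liver (16.5%) was close to that of mouse E (16.9%), and its library total was the highest of the 12. Summed markers of other liver cells overlapped between genotypes, at 191 to 324 CPM in WT and 141 to 275 in KO for 3 Kupffer cell genes, 169 to 236 and 178 to 234 for 2 endothelial genes, and 0.966 to 5.01 and 0.917 to 1.98 for 3 B cell genes, none of them at 0 throughout a liver group, and their part in the liver values was not tested.

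**Figure D4:**
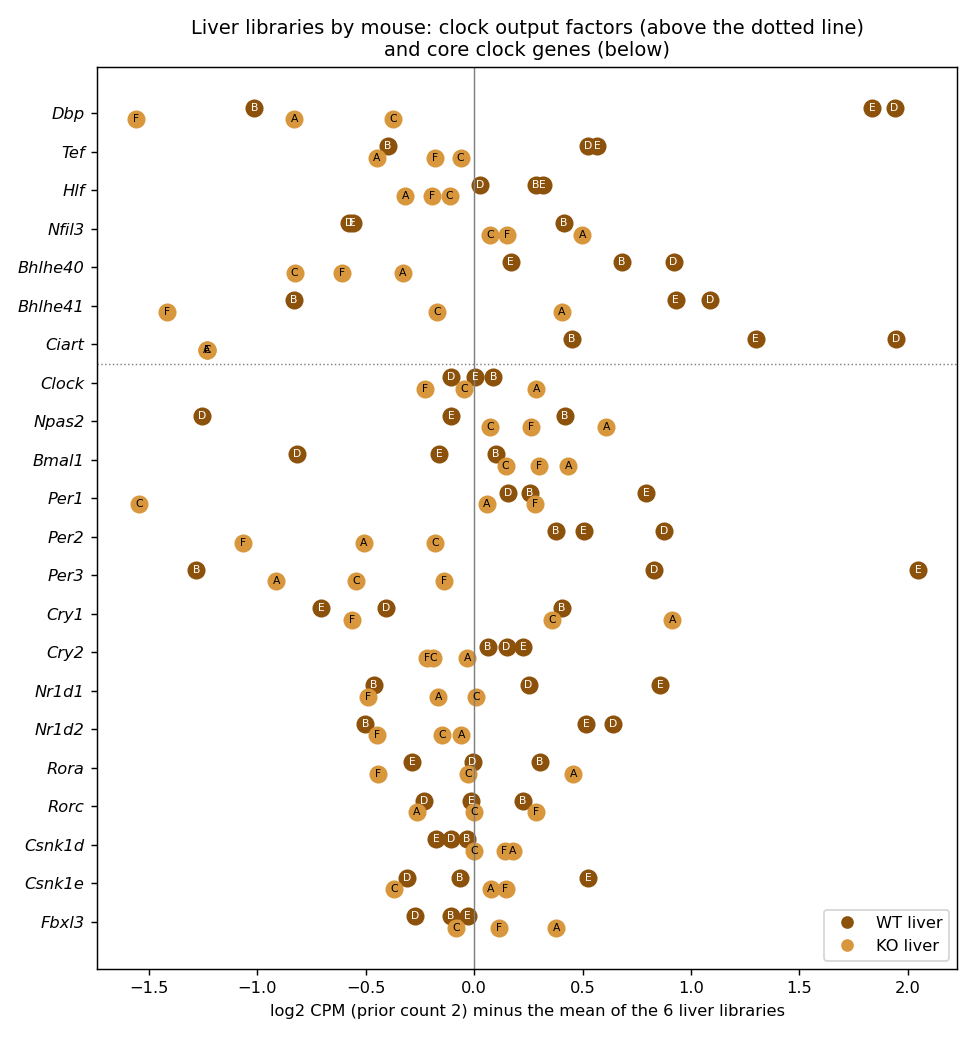
Log2 CPM (prior count 2) of each liver library minus the mean of the 6 liver libraries, for the 7 clock output factors (above the dotted line) and 15 core clock genes (below), with the letter of the mouse in each point. WT mouse B sits with or beyond the KO mice for Dbp, Tef, Nfil3, Bhlhe41, Npas2, Per3, Nr1d1 and Nr1d2 and apart from them for Hlf, Bhlhe40, Ciart, Bmal1, Per2, Cry2 and Csnk1d; the 3 KO points of Ciart, all at 0 counts, coincide.

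The genes above and below this family in the clock were read from lists in the same way. Of the 15 core clock genes fitted in liver, 10 had a negative log2 fold change and the median was -0.016. Repressors of the loop were mostly lower in KO, with -1.64 (SE 0.81) for Per3, -1.19 (SE 0.24) for Per2, -0.68 (SE 0.46) for Per1 and -0.33 (SE 0.12) for Cry2, but 0.48 (SE 0.44) for Cry1. Among the activators the values were -0.013 for Clock, 0.46 for Npas2 and 0.51 (SE 0.21) for Bmal1, whose 3 KO livers (58.3 to 71.3 CPM) all lay above the WT livers (29.9 to 56.5 CPM). The receptor genes Nr1d1 and Nr1d2, which encode the REV-ERB repressors of Bmal1, had values of -0.56 and -0.55. All 5 fitted genes of the list of other E-box outputs were negative, with a median of -0.52, and the genotypes were apart for Nampt, the rate-limiting enzyme of NAD salvage (-0.52), and for the ubiquitin protease gene Usp2 (-1.18).

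Known or proposed targets of the PAR bZIP proteins showed no common direction in liver. Of 9 genes fitted, 3 were negative and 6 positive, with a median of 0.12, and none had genotypes apart. Cyp7a1, the rate-limiting enzyme of bile acid synthesis, read 80.4, 34.4 and 186 CPM in WT liver of mice B, D and E and 73.4, 80.1 and 485 CPM in KO liver of mice A, C and F. Its highest livers were those of mice E and F, the pair with few Y-linked counts, and the same held for Cyp2b10, an inducible cytochrome P450, at 19.8 and 38.9 CPM in these against 1.09 to 3.48 CPM in the other 4. The pyridoxal kinase gene Pdxk (0.12, SE 0.17) and the haem synthesis gene Alas1 (0.20, SE 0.37) differed little relative to their errors.

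Brain libraries took no part in choosing the genes, and the question of whether the family differed between genotypes there was tested. No member was called: all 7 log2 fold changes were negative, where 50.2% of the 17188 genes tested were. That of Bhlhe41 was positive without WT mouse D (0.065), and that of Nfil3 without WT mouse D (0.061) or KO mouse A (0.11). The edgeR quasi-likelihood test with Benjamini-Hochberg adjustment called 0 of 7 at an adjusted p under 0.1, against 0.0640% of all genes (11, all higher in KO). DESeq2 also called 0 of 7, and 0 of 7 had an unadjusted p under 0.05, against 11.0% of all genes. The lowest adjusted p was 0.480 for Bhlhe40, at a log2 fold change of -0.47 (SE 0.23), and without the filter on low counts Bhlhe40 was called, at an edgeR adjusted p of 0.0895 (range 0.0895 to 0.990 over its alternatives). The next lowest were 0.583 for Dbp at -0.32 (SE 0.22) and Hlf at -0.23 (SE 0.16). These sizes moved with single libraries: Dbp was at -0.51 without WT mouse B and -0.12 without WT mouse D, and Hlf at -0.31 without WT mouse B and -0.099 without WT mouse E. Tef ran from -0.27 without KO mouse C to -0.10 without WT mouse D, Bhlhe40 from -0.67 without KO mouse C to -0.32 without KO mouse A, and Ciart from -0.29 without KO mouse A to -0.040 without KO mouse C. With all libraries Tef was at -0.17 (SE 0.15), Ciart at -0.14 (SE 0.23), Bhlhe41 at -0.11 (SE 0.20) and Nfil3 at -0.035 (SE 0.21), with adjusted p from 0.652 to 0.958 by the same test. The libraries of the genotypes overlapped for all 7, whereas 8.95% of all genes were apart with KO lower. Exact two-sided permutation tests of the CPM gave p from 0.2 to 0.7, where 3 against 3 libraries cannot go below 0.1. The median of the 7 was -0.17, against -0.0016 over all genes. Whether the genotype difference is unequal in liver and brain was not tested, because the liver values chose the genes.

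Mouse B was the lowest WT brain for 6 of the 7 genes other than Ciart. For Dbp, Tef, Hlf and Bhlhe40, mice D and E lay above the KO brains and mouse B did not. Over all genes tested in brain, mouse B was the only WT library not apart for 18.6%, mouse D for 3.96% and mouse E for 10.5%. Within a genotype the brain libraries also varied together. WT mouse D was the highest of the WT brains for 6 of the 7 genes other than Hlf, and KO mouse C the highest of the KO brains for 6 of the 7 genes other than Ciart. These were the libraries with the lowest mitochondrial rRNA share of their genotype (7.63% and 21.4%). The brain groups differed in regional markers too: the summed CPM of 5 olfactory bulb genes was 2.10 to 3.53 in WT and 24.8 to 35.5 in KO, that of 5 cerebellar genes 332 to 505 in WT and 38.5 to 189 in KO, and that of 5 choroid plexus genes 174 to 312 in WT and 84.4 to 140 in KO. None of these 15 markers was at 0 in all libraries of a brain group. The part of region and RNA composition in the brain values was not tested.

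**Figure D5:**
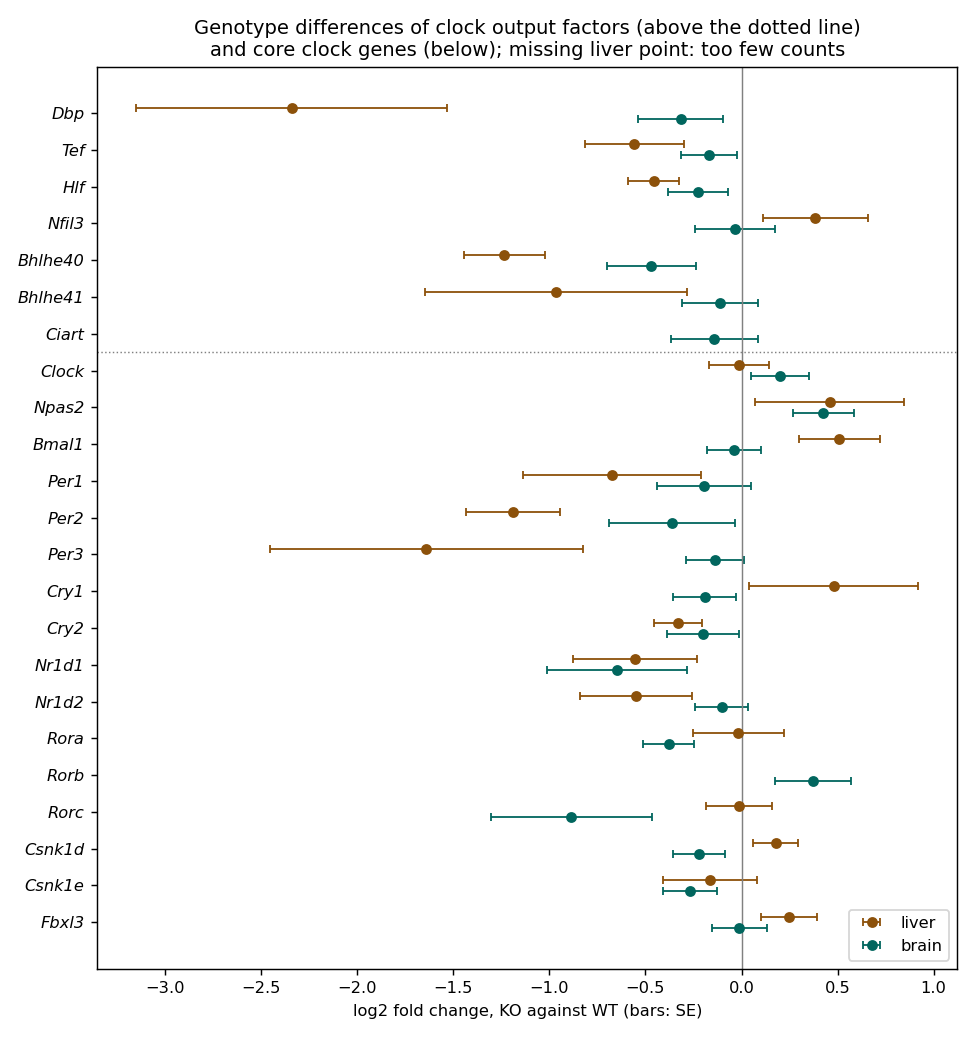
Log2 fold change of KO against WT in liver and in brain, with bars for 1 SE, for the 7 clock output factors (above the dotted line) and 16 core clock genes (below); Ciart and Rorb had too few counts in liver. In liver the output factors run from -2.34 (Dbp) to 0.38 (Nfil3), and in brain from -0.47 (Bhlhe40) to -0.035 (Nfil3).

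The lists around the family gave no call in brain either. Of 16 core clock genes 13 were negative, with a median of -0.19, and 0 were called by edgeR or DESeq2. The 2 at an unadjusted p under 0.05 were Npas2 (0.43, SE 0.16), a partner of BMAL1, and the nuclear receptor gene Rora (-0.38, SE 0.13), and the difference of Nr1d1 was -0.65 (SE 0.36). Among the PAR bZIP targets 0 of the 5 tested were called by edgeR or DESeq2 or had an unadjusted p under 0.05, and all were negative with a median of -0.12. Of 6 other E-box outputs 0 were called by edgeR or DESeq2 and 1 had an unadjusted p under 0.05, Usp2 at -0.49 (SE 0.17).

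The difference between tissues was averaged over the genotypes and tested over all 12 libraries. The liver libraries that took part in choosing the genes also enter it, because KO liver is part of the liver mean. For Dbp and Bhlhe40, whose low levels in KO liver helped to choose the family, the test is therefore not independent of that choice. Ciart passed the filter on low counts only through brain, where it was high, so its tissue difference is given as a description. The other 6 genes were called by the edgeR quasi-likelihood test with Benjamini-Hochberg adjustment, with 2 higher and 4 lower in liver. Tissue differences were common, as 84.9% of 18944 genes were called, 37.9% higher and 47.0% lower in liver, so a call as such does not set these genes apart. The median over all genes was -0.22, and with the size factors of DESeq2 it was -0.32, and the direction of these 6 genes was the same under both.

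All 3 PAR bZIP activators were lower in liver than in brain, and their libraries did not overlap between tissues, which 38.2% of all genes tested showed in this direction and 28.1% in the other. Of the 3, Dbp differed most, with a log2 difference of -2.73 (SE 0.42, adjusted p = 7.27e-05, edgeR). Its size was unequal by genotype, at -1.74 in WT alone and -3.72 in KO alone, values chosen after seeing the data and given without a test because the liver levels of each genotype helped to choose the gene. Dbp was followed by Tef at -1.30 (SE 0.16, adjusted p = 2.62e-06) and Hlf at -0.99 (SE 0.11, adjusted p = 1.07e-06). Nfil3 went the other way, 6.22-fold higher in liver (log2 difference 2.64, SE 0.19, edgeR adjusted p = 9.12e-09), also without overlap. The DEC repressors were opposite to each other. Bhlhe40 was higher in liver by a log2 difference of 1.29 (SE 0.18, edgeR adjusted p = 8.53e-06), although the libraries of the tissues overlapped, since KO liver and WT brain shared a range. Bhlhe41 was 23.3-fold lower in liver (log2 difference -4.54, SE 0.32, edgeR adjusted p = 7.73e-09). Ciart was the member with no fitted value that can be read, because KO liver had no count. By its levels, WT liver had 0.584 ± 0.341 CPM against 4.30 ± 0.333 in WT brain (SD, n = 3), and KO liver was at least 53.4-fold lower than KO brain against the floor of 3 counts over the group.

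The lists had a mixed arrangement between tissues. By the same edgeR test, 4 of 16 core clock genes were higher in liver, 8 were lower and 4 were not called. Of the 8, Rorb (mean 0.043 CPM in WT liver and 0.075 in KO liver) passed the filter on low counts only through brain. Its difference is therefore a description and not a test. Per3 (-2.32, SE 0.41) and Cry2 (-1.06, SE 0.12) were lower in liver with separate libraries, whereas Bmal1 (0.73, SE 0.14) and Nr1d1 (0.91, SE 0.27) were higher. Of the 9 PAR bZIP targets 7 were higher in liver, and Abcb1a and Pdxk were not called. Of the 7, Nr1i3, Cyp2a5, Cyp2b10 and Cyp7a1 passed the filter on low counts only through liver, where they were high. Their differences are therefore given as a description and not as a test. Of 6 other E-box outputs tested, 2 were higher in liver (Noct at 1.52 and Nampt at 0.46) and 4 were lower, with Usp2 at -3.45 (SE 0.18). Of these 4, Avp had no count in any liver and passed the filter only through brain, so its difference is a description.

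The genes whose pattern was most like that of each member were found as those with the smallest root mean square difference of log2 CPM over the 12 libraries, after each gene was centred on its mean, among 18943 other genes. For Dbp the nearest was Per3 (0.600), with Sptbn5 (0.603) and Hkdc1 (0.631) next to it. For Hlf it was Cry2 (0.160), ahead of Gm49524 (0.174). Both have a core clock repressor as their nearest gene, while the nearest genes of the other 5 were outside the clock lists: Mindy2 (0.229) for Tef, Myo1c (0.230) for Nfil3, Polr2i (0.368) for Bhlhe40, Nr2f1 (0.419) for Bhlhe41 and Smpd3 (0.515) for Ciart. The 12 libraries span both tissues, between which 6 of the 7 genes were called, and the liver and brain libraries of a mouse share the animal.

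Exons of 4 members overlap a gene on the opposite strand (Dbp with Sphk2 over 539 bases, Tef with Gm17597 over 193, Bhlhe40 with 0610040F04Rik over 118 and Bhlhe41 with Gm43909 over 1280). Counting was set to the strand of the library, and none overlapped an exon of another gene on its own strand.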

How the data were processed

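The values deposited by the authors are read counts for each gene, not normalised. They were made from stranded total RNA libraries (SMARTer kit, single-end reads) trimmed with Trimmomatic, aligned to mm10 with STAR 2.7.3a and counted over exons by featureCounts in reverse-stranded mode. Library totals were 14403309 to 21623180 counts. Groups follow the labels, and all 12 libraries were used.

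Differences were fitted to these counts by edgeR 4.0.16 under R 4.3.3 (TMM normalisation, filterByExpr, robust quasi-likelihood F test, Benjamini-Hochberg adjustment over all genes tested, call at an adjusted p under 0.1), within each tissue for genotype and over 12 libraries for tissue. CPM were scaled over all 12 libraries, log2 CPM used a prior count of 2, and libraries were called apart within a tissue. DESeq2 1.42.0 was an alternative. The code was tested on simulated data. The genes named are the 7 members, the listed clock, target, output and marker genes, and the nearest genes per member, of which 1 is not reported here. The members and lists were chosen with earlier results of these data known. Animals of unlike genotype are described in the study as pairs. No label gives their partners, so genotypes were compared unpaired. The labels pair liver and brain by mouse. Deviations of the pairs from their group means had Pearson correlations of -0.0392 to 0.141 over 12574 genes, which need not hold for single members. For Dbp the log2 deviations in liver and brain were -1.93 and -0.50 in mouse B, 1.02 and 0.40 in mouse D, and 0.090 and -0.14 in mouse A. For Nfil3 they were 0.65 and -0.21 in mouse B. The SE of the Dbp tissue difference was 0.42 without and 0.28 with mouse as a replicate block. Symbols came from the reference tables (55141 genes matched).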

Additional observations from a re-analysis of the deposited data

How the results depend on the processing

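The 6 calls between liver and brain other than that of Ciart held under all 12 alternatives. Of these, the comparisons within WT and within KO were chosen after seeing the data (14845 and 15157 genes called) and use the liver levels that helped to choose the genes, so they are no separate support. With mouse as a replicate block (paired tissues) 15869 genes were called, the 6 members other than Ciart among them. Leaving out 1 mouse gave 15994 to 16166 genes. In liver, 5 of 6 members stayed negative throughout, while the number of genes called went from 0 to 187 with DESeq2, 443 without the filter on low counts, 82 with Y-linked transcripts as a covariate and 0 to 87 when 1 library was left out (87 without WT mouse D, 2 without KO mouse C). In brain the number of genes called went from 11 to 286 with DESeq2 and 1000 without the filter, and to 2 to 23 when 1 library was left out (2 without WT mouse E, 3 without B, 4 without D, 6 without KO mouse A, 5 without F and 23 without C). The number of members called there stayed at 0 when any library was left out and became 1 without the filter, Bhlhe40 at an edgeR adjusted p of 0.0895 (range 0.0895 to 0.990 over its alternatives). Of 70 brain values 66 kept direction and call, and 3 changed sign: Bhlhe41, at 0.065 without WT mouse D (range over libraries left out -0.28 to 0.065), and Nfil3, at 0.061 without WT mouse D and 0.11 without KO mouse A (range -0.19 to 0.11). The causes of these changes were not tested. With 3 libraries a group and 24 counts in all, Ciart in liver is limited by depth.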
